A study of Homo sapiens with 6 samples.

Results

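Box C/D small nucleolar RNAs (snoRNAs) were examined in KMS27, an established human line of malignant plasma cells, in 3 libraries labelled wild type and 3 labelled HA-TAZ. The members were the genes whose symbol in the authors' deposited table begins with SNORD and a digit and whose mean TPM over the 6 libraries was at least 1. TPM is an abundance corrected for transcript length and scaled to the same total in every library. This gave 148 of the 437 gene IDs with such a symbol, out of 63677 genes in all. The members were thus chosen by their mean level, which is a description here and not a result.

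All 6 libraries came from the same line, and the groups differ, per the labels, in HA-TAZ, the treatment label of the second group. TAZ is the product of WWTR1, a transcriptional coactivator of the Hippo pathway. Neither the promoter of the construct, nor whether the cells were a clone or a pool, nor the time after its introduction is given in the sources used here. HA also stands in the sample titles of the wild type group, and no label says whether those cells received a construct. The value columns of the HA-TAZ libraries name TAZ and a number, and these are called HA-TAZ 1, 2 and 3. The other 3 columns carry a name that is in no label. They were taken as wild type by elimination and are called control a, b and c, because they cannot be tied to single samples.

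Box C/D snoRNAs are short nucleolar RNAs with a C box near the start and a D box near the end. They assemble with fibrillarin (FBL), NOP56, NOP58 and SNU13, and most of them guide fibrillarin to methylate the ribose of a chosen nucleotide in ribosomal RNA. A few act in cleavage and folding of the ribosomal precursor instead: U3 (SNORD3) in the early processome of the small subunit, U8 (SNORD118) in the large subunit, and U13 (SNORD13) and U14 (SNORD14) in the small subunit. In human cells U3, U8 and U13 are transcribed from their own promoters, whereas most others, U14 included, are cut out of introns of host genes. Plasma cells are secretory cells with a high demand for ribosomes.

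The sequences below show the RNAs on which the comparisons turn, from GENCODE release 29 (GRCh38), matched by transcript ID and version and written 5′ to 3′ as DNA letters. Capitals mark a TGATGA, the common form of the C box, and the last CTGA within 15 bases of the end, the common form of the D box. The first line is the start of the annotated SNORD3A transcript of 699 bases up to the end of its U3 stretch, after which 483 further bases follow in the annotation. SNORD3D, a near copy of U3 on the same chromosome 17, differed from this stretch at 3 of 216 positions, written A4G, C53T and A78C, with SNORD3A first and positions counted from the 5′ end.
SNORD3A (chromosome 17): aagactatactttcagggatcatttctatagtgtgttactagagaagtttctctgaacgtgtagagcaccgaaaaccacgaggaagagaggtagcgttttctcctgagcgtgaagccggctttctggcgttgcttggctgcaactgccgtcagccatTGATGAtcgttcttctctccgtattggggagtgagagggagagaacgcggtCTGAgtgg
SNORD10 (chromosome 17, within EIF4A1): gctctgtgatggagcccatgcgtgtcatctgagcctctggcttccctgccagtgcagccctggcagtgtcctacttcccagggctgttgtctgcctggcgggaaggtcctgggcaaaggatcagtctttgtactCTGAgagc
SNORD14A (chromosome 11, within RPS13): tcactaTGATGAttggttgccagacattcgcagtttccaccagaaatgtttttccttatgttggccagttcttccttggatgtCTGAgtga
SNORD14E (chromosome 11, within HSPA8): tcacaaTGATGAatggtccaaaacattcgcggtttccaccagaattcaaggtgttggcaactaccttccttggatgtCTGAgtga
SNORD14, ENSG00000202479 (chromosome 2, within DNAJC27): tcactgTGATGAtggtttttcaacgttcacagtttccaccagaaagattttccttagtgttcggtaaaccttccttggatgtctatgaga
SNORD41, ENSG00000209702 (chromosome 19, within TNPO2): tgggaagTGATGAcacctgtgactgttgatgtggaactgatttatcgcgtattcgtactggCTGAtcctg
SNORD41, ENSG00000212302 (chromosome 14, within AL160314.2): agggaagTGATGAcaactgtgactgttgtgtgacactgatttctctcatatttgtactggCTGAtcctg
SNORD14A and SNORD14E, the U14 genes that were measured, were identical in 77.2% of 92 aligned columns. The copy on chromosome 2 that carries the symbol SNORD14 was identical to SNORD14A in 78.3% of 92 columns, and it held no CTGA within 15 bases of its end. The SNORD41 entries were identical in 87.1% of 70 columns. SNORD10 held no TGATGA.

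A sequence of the same transcript version and of at most 300 bases was found for 115 members. TGATGA lay in the first 25 bases of 79 of these (68.7%) and CTGA in the last 15 bases of 93 (80.9%), and 70 held both (60.9%). Letters were searched on the RNA strand only, and the motifs do not overlap. The same search in 169 box H/ACA snoRNAs, the class that guides pseudouridylation, found TGATGA in 1 (0.592%) and CTGA in 4 (2.37%). The SNORD symbols under the filter on level held both motifs in 54.3% of 208. Both motifs were held by 67.5% of the 80 members whose symbol belongs to 1 gene ID, and by 45.7% of the 35 whose symbol is shared by several gene IDs.

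The 148 members carried 122 symbols. They had 136 distinct sets of values, because 18 of them fell into 6 sets with the same 6 values: SNORD117 with 7 IDs called SNORD83, SNORD62A with SNORD62B, SNORD103A with SNORD103B, SNORD116-3 with SNORD116-9, SNORD116-5 with SNORD116-7, and SNORD36 with SNORD36C. How the authors' quantification handled reads of such copies is not given in the sources used here, and the values of each copy are uncertain. A symbol shared with at least 1 other SNORD gene ID was carried by 54 members. The current table of gene names gave 102 members the same symbol, 8 another SNORD symbol and 12 only an ID, 25 members were not in it, and ENSG00000252284, called SNORD28 in the deposited table, is now named SNORA108, an H/ACA name. Of the 437 SNORD gene IDs, 243 were listed at 0 in all libraries and 46 were above 0 and under the filter. The members nearest above the filter were SNORD116-16 at 1.09, SNORD112 (ENSG00000252559) at 1.10 and SNORD111 (ENSG00000252230) at 1.16 mean TPM, each listed at 0 in 3 libraries. Nearest below it were SNORD115 (ENSG00000212411) at 0.950, SNORD38A at 0.926 and SNORD56 (ENSG00000200753) at 0.898.

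The gene for TAZ itself, WWTR1, ranged from 293 to 306 TPM in the libraries named TAZ and from 1.69 to 2.69 TPM in the others. Of 10 plasma cell markers all had a mean TPM of at least 1. Their summed level as deposited was 2825 to 3262 TPM with HA-TAZ and 4308 to 4877 TPM in the controls. Their median log2 fold change was -0.03 after the scaling described below and -0.33 as deposited. Over all tested genes it was -0.03 and -0.27. T cell markers summed to 1.26 to 1.40 TPM with HA-TAZ and 2.15 to 2.42 TPM in the controls, with TRBC2 at 0 in every library. Epithelial and stromal markers summed to 3.90 to 4.73 TPM and 5.03 to 6.74 TPM, and myeloid markers to 2.83 to 3.46 TPM and 2.64 to 3.04 TPM. The part of these differences in the snoRNA values was not tested. Read depth per library cannot be had from TPM. The means in the authors' deposited table imply a median of 17.8 estimated counts per library for the 118 members with statistics there: 37 had under 10, 65 had 10 to 100 and 16 had at least 100.

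The 22651 genes that passed the same filter were tested with limma on log2(TPM divided by a library factor, plus 1), called scaled TPM + 1 here, and a gene was called at a Benjamini-Hochberg adjusted p under 0.05 over all of them. Over the 22651 genes the median log2 fold change was -0.03 after scaling and -0.27 in TPM as deposited, a shift of 0.25. The median of the members was 0.04 after scaling and -0.21 as deposited. Relative to the median of all tested genes the members stood at 0.07 and 0.06. Fold changes on this scale understate changes of genes near 1 TPM. Because the samples are bulk RNA, fewer cells of a kind and less RNA per cell cannot be told apart, and nothing in the labels says that the 3 libraries of a group came from separate cultures, so p-values measure only the spread between these libraries.

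The summed level of box C/D snoRNAs was under 0.6% of each library, and the direction of its difference turned with the scaling. The members made up 0.544%, 0.562% and 0.588% of the TPM in HA-TAZ 1, 2 and 3 and 0.577%, 0.598% and 0.572% in control a, b and c. The group means were 0.565% ± 0.0223 (SD, n = 3) and 0.582% ± 0.0137 (SD, n = 3), the groups overlapped, and a two-sided exact permutation test returned p = 0.4, where 3 against 3 libraries cannot go below 0.1. SNORD3A, the main U3 gene, was by far the most abundant member. It held 37.3%, 36.2% and 44.9% of the members' TPM in HA-TAZ 1, 2 and 3 and 27.4%, 32.9% and 34.2% in control a, b and c. Every HA-TAZ library was above every control (exact permutation p = 0.1). The remaining 147 members summed to 0.341%, 0.358% and 0.324% of the HA-TAZ libraries and to 0.419%, 0.401% and 0.377% of the controls, lower without overlap. Divided by the library factors, the sum over all members was 6233 ± 399 scaled TPM (SD, n = 3) with HA-TAZ and 5223 ± 394 (SD, n = 3) in the controls, 1.19-fold higher without overlap (exact permutation p = 0.1). Without SNORD3A the scaled sum overlapped between the groups, at 3763 ± 155 scaled TPM (SD, n = 3) with HA-TAZ and 3569 ± 107 (SD, n = 3) in the controls.

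The level was concentrated in few members. SNORD3A and SNORD17, an unusually long guide RNA within SNX5, together held 45.2% of the members' mean TPM, and the 8 highest members held 58.8%. After SNORD3A at a mean of 2034 TPM came SNORD17 at 555 TPM, SNORD15B at 152, SNORD93 at 147, SNORD12B at 141, SNORD12 at 122, SNORD14A at 116 and SNORD104 at 107 TPM. From SNORD15B downwards, neighbours in this order lay closer together than their libraries: SNORD15B ranged from 132 to 169 TPM in the controls alone. The median member had 11.0 TPM. Among SNORD genes with a sequence length, the share that passed the filter was 24.9% of 173 below 80 bases, 41.1% of 129 with 80 to 99 bases, 85.7% of 14 with 100 to 129 bases, and all 7 with 130 to 300 bases. This is a description of which genes the rule took, and the members' median level ran from 10.9 to 14.3 TPM over these classes.

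In the test across all genes, 9 of the 148 members were called, 6 higher and 3 lower with HA-TAZ. The higher calls were SNORD3B-1, SNORD3B-2, SNORD3D, SNORD118, SNORD13 and SNORD10, and 5 of these belong to the U3, U8 and U13 families. Over all tested genes 4.67% were called higher and 2.63% lower, so 6 and 3 of 148 lie near the background. Groups that did not overlap were seen in 20 of the 148 members on the higher side and in 12 of the 148 on the lower side. After scaling, both shares lie below the 20.2% and 18.3% of all tested genes. In TPM as deposited, 13 of the 148 members were higher and 31 lower without overlap. There 1000 of the 22651 tested genes were higher and 9876 lower, so the members' higher share lies above that of all genes. Members with the same values, such as SNORD116-3 and SNORD116-9, were each counted. An unadjusted p under 0.05 was reached by 21.6% of the members and 30.7% of all tested genes. The members' standard errors were larger, with a median of 0.31 against 0.12 on the log2 scale. They were 0.42 for the 71 members under 10 TPM and 0.16 for the 17 members of at least 50 TPM. Among members, 11 passed the filter with 1 group's mean below 1 TPM, and 3 of these are among the 9 calls (SNORD118 and the copies of SNORD14 and SNORD41), so their difference is partly what let them in. In TPM as deposited the split was 6 higher and 9 lower, where 1.15% of all tested genes were called higher and 13.5% lower. With no filter on level SNORD3B-1 and SNORD112 (ENSG00000251881) kept their calls, and the other 7 lost theirs (limma adjusted p from 0.052 to 0.089). With 1 library left out, 0 to 5 members were called higher and 0 or 1 lower, while the calls over all genes fell from 1652 to between 117 and 435. None was called higher without HA-TAZ 1 or HA-TAZ 2, 1 without HA-TAZ 3 or control b, 4 without control a and 5 without control c.

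**Figure D1:**
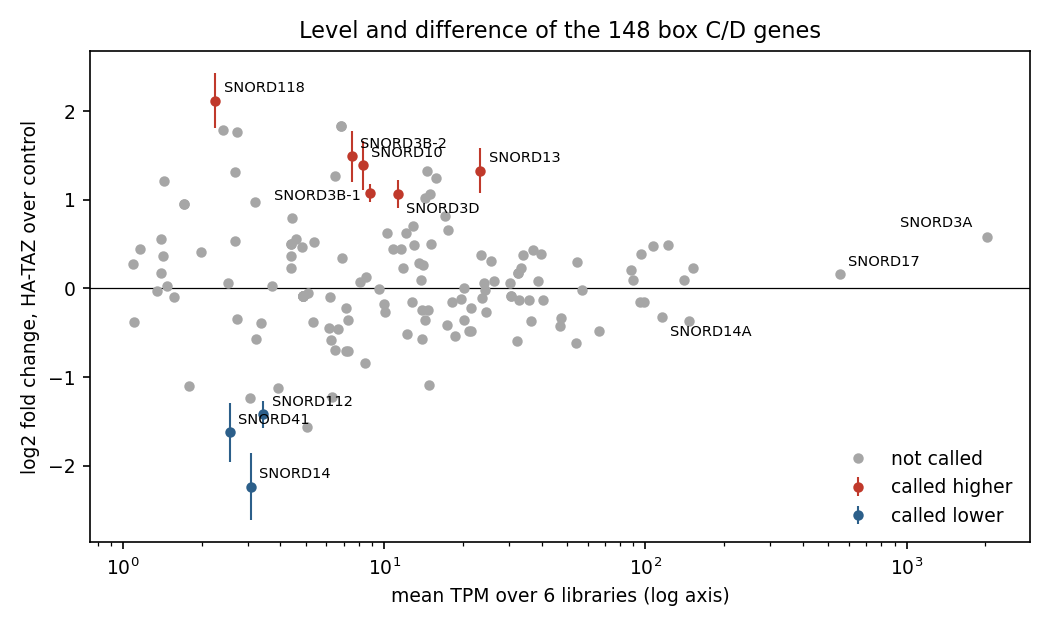
Log2 fold change of HA-TAZ over control (vertical) against mean TPM over the 6 libraries (horizontal, log axis) for the 148 members, 1 point per gene, with bars of 1 standard error for the 9 called genes. The calls lie between 2.25 and 23.3 mean TPM, and SNORD3A and SNORD17, the most abundant members, are not among them.

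The list of pre-rRNA processing snoRNAs held 12 genes: 5 of U3, SNORD118, SNORD13 and 5 of U14, of which SNORD14B, SNORD14C and SNORD14D were listed at 0 in all libraries. Of the 9 that were tested, SNORD3B-1, SNORD3B-2, SNORD3D, SNORD118 and SNORD13 were called higher and none lower, and 7 had an unadjusted p under 0.05, where 4.67%, 2.63% and 30.7% of all tested genes did so. The median log2 fold change was 1.07, beside -0.03 over all tested genes. The median was 0.79 in TPM as deposited and 1.0 when scaled on protein-coding genes, and as deposited 1 gene, SNORD14A, was called lower. The list was chosen with earlier results of these data known, and SNORD118 passed the filter only through its level with HA-TAZ, so these counts describe the list and support nothing beyond it.

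U3 anchors the early small-subunit processome by base pairing with the ribosomal precursor. SNORD3A stood at 2027, 2036 and 2638 TPM in HA-TAZ 1, 2 and 3 and at 1580, 1969 and 1956 TPM in control a, b and c. All HA-TAZ libraries were above all controls, with HA-TAZ 3 highest and control a lowest, but the difference was not called (log2 fold change 0.58, SE 0.19, limma adjusted p = 0.11). SNORD3B-1 stood at 10.8, 12.1 and 11.4 TPM against 5.58, 6.58 and 6.18 TPM. These 6 values were the tightest of the U3 family, and the gene rose (log2 fold change 1.07, SE 0.10, limma adjusted p = 0.010). SNORD3D stood at 15.9, 14.6 and 13.1 TPM against 6.81, 8.14 and 9.03 TPM, again without overlap (log2 fold change 1.07, SE 0.16, limma adjusted p = 0.027). SNORD3B-2 stood at 11.4, 8.18 and 13.1 TPM against 3.09, 3.46 and 5.72 TPM (log2 fold change 1.49, SE 0.29, limma adjusted p = 0.042). SNORD3C, at 7.86, 10.2 and 3.94 TPM against 5.03, 6.96 and 7.44 TPM, overlapped (log2 fold change 0.35, SE 0.33, limma adjusted p = 0.51). These genes are near copies of each other, so how reads were divided among them is uncertain. Their sum can also depend on this division, because their transcripts differ in counts per TPM, as described below. It may depend on the division with other gene IDs named U3 as well. It was 2278 ± 348 TPM (SD, n = 3) with HA-TAZ and 1860 ± 225 TPM (SD, n = 3) in the controls, 1.22-fold higher without overlap (exact permutation p = 0.1), and 1.5-fold higher after scaling. On leaving out 1 library, SNORD3B-1 lost its call without HA-TAZ 1 or 2 (limma adjusted p of 0.057 and 0.054), and SNORD3D lost it without any 1 of HA-TAZ 1, 2 and 3 and control b (0.074 to 0.096). SNORD3B-2 lost it without any 1 of the 6 libraries (limma adjusted p from 0.051 to 0.13) and with limma without trend (0.057).

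**Figure D2:**
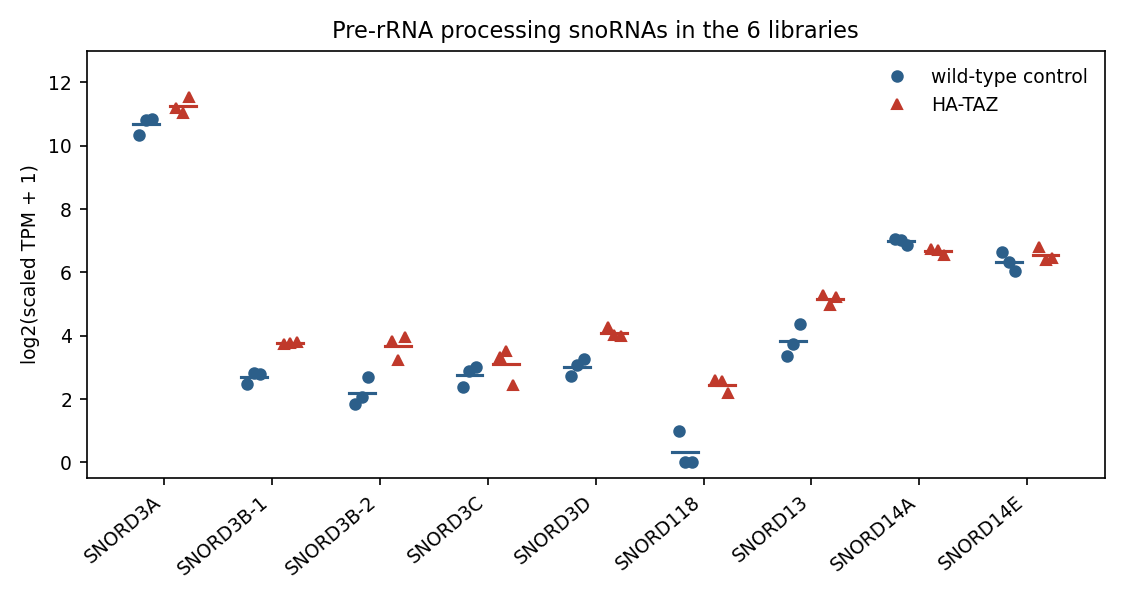
Log2(scaled TPM + 1) of the 9 tested pre-rRNA processing snoRNAs, with circles for the 3 control libraries, triangles for the 3 HA-TAZ libraries and a line at each group mean. HA-TAZ lies above control without overlap for SNORD3A, SNORD3B-1, SNORD3B-2, SNORD3D, SNORD118 and SNORD13, SNORD14A lies below, and SNORD3C and SNORD14E overlap.

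Within U3, the difference was larger in long transcripts than in short ones. The deposited table lists 2 transcripts for each U3 gene. Implied counts per TPM, which grow with transcript length, separated 4 long transcripts (24.1 to 31.5 counts per TPM) from 2 short ones (4.15 and 4.21). The annotated lengths are 699 bases for the long SNORD3A transcript (ENST00000584923.1) and 637 bases for that of SNORD3D (ENST00000573866.2). Both run past the U3 stretch printed above, and that of SNORD3A begins with it. How reads of this stretch were divided between long and short transcripts is uncertain. The long SNORD3A transcript stood at 77.5, 70.8 and 81.1 TPM with HA-TAZ and 33.2, 48.9 and 54.1 TPM in the controls, without overlap. Its short counterpart (ENST00000365494.1), which holds most of the U3 level, stood at 1949, 1966 and 2556 TPM against 1546, 1921 and 1902 TPM. For SNORD3B-1, SNORD3B-2 and SNORD3D only the long transcript was above 0, so their gene-level values are those of the long transcript. In SNORD3C nearly all of the level was in the short one.

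Tested over 57448 transcripts with limma, of which 0.456% were called higher, the long SNORD3B-1 transcript (ENST00000577988.1) rose, with a log2 fold change of 1.07, SE 0.10 and adjusted p = 0.023. This call was lost in TPM as deposited (adjusted p = 0.053) and on leaving out HA-TAZ 1, 2 or 3 or control b or c (limma adjusted p between 0.058 and 0.137). The long transcripts of SNORD3D, SNORD3B-2 (ENST00000571722.2) and SNORD3A had log2 fold changes of 1.06, 1.49 and 1.06 and missed the threshold, with limma adjusted p of 0.060, 0.075 and 0.086. The short SNORD3A transcript had 0.57 (limma adjusted p = 0.14), and that of SNORD3C (ENST00000362428.1) had 0.34 (limma adjusted p = 0.54). In the authors' deposited table, 119 of the 159 member transcripts had statistics, and 4 had a q-value under 0.05, all with a positive effect. These are the same 4 long U3 transcripts, and the authors' deposited table gives q = 2.75e-07 for SNORD3B-1, 4.46e-07 for SNORD3D, 0.000593 for SNORD3B-2 and 0.00422 for SNORD3A. There 4.08% of all transcripts with statistics had a q-value under 0.05 and a positive effect. For the short SNORD3A transcript the authors' deposited table gives q = 0.0792.

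Summed over the family, long U3 transcripts stood at 116, 106 and 119 TPM in HA-TAZ 1, 2 and 3 and at 48.7, 67.0 and 75.0 TPM in control a, b and c. They made up 5.58%, 5.08% and 4.43% of the U3 level with HA-TAZ and 3.04%, 3.36% and 3.78% in the controls. This share needs no scaling between libraries, and the groups did not overlap: the means were 5.03% ± 0.576 (SD, n = 3) and 3.39% ± 0.372 (SD, n = 3), with an exact permutation p = 0.1, the smallest that this design allows. The split into long and short transcripts was chosen after the values were seen. The long share also rests on how reads of the common U3 stretch were divided, which is uncertain.

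**Figure D3:**
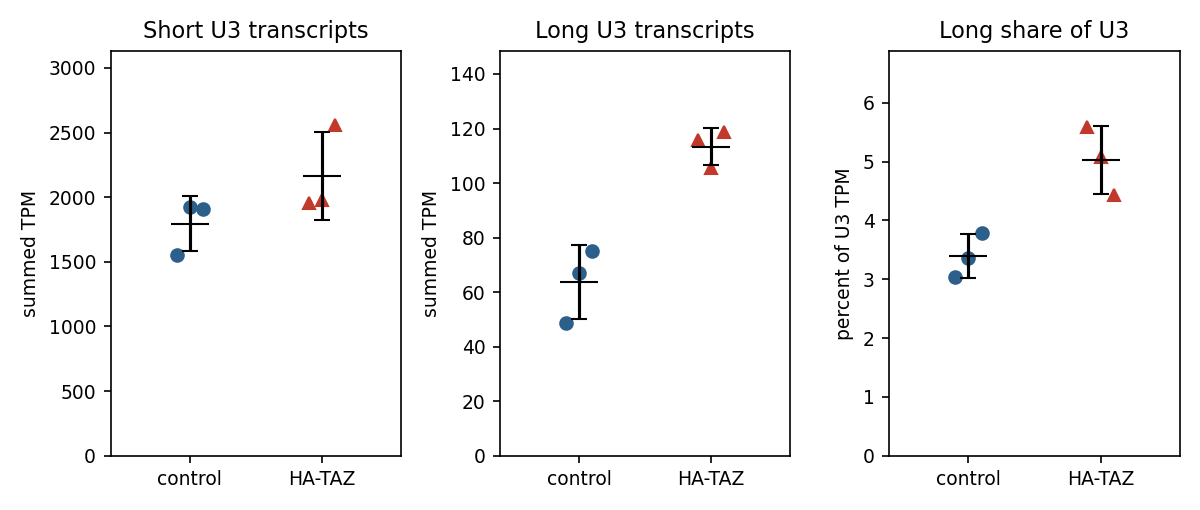
Summed TPM of the 2 short and the 4 long U3 transcripts and the long share of the U3 level in percent, 1 point per library, with the mean and SD of each group in black and all vertical axes starting at 0. The long transcripts were 1.78-fold higher with HA-TAZ and the short ones 1.21-fold higher, and the long share was at least 4.43% in each HA-TAZ library and at most 3.78% in each control.

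U8 and U13, the other snoRNAs of this list with their own promoters, were also higher. SNORD118, which is needed for maturation of large-subunit ribosomal RNA, stood at 4.44, 4.73 and 3.15 TPM with HA-TAZ and at 1.21 TPM in control a, and it was listed at 0 in controls b and c. It was called (log2 fold change 2.12, SE 0.31, limma adjusted p = 0.026), but only 2.33 estimated counts per library stand behind it, and the authors' deposited table gives q = 0.466. The call was lost without any 1 of HA-TAZ 1, 2 and 3 and controls b and c (limma adjusted p from 0.061 to 0.11) and at a pseudocount of 0.1 (0.056). GENCODE places SNORD118 within an exon of TMEM107 on the same strand. TMEM107 itself was at 5.23, 4.28 and 4.70 TPM against 4.81, 5.52 and 4.80 TPM (log2 fold change 0.17, limma adjusted p = 0.41). SNORD13, a small capped RNA that guides acetylation of small-subunit ribosomal RNA, stood at 32.7, 29.5 and 32.0 TPM against 11.3, 13.6 and 20.6 TPM. It rose without overlap (log2 fold change 1.33, SE 0.25, limma adjusted p = 0.041), with about 20.2 implied estimated counts, and the authors' deposited table gives q = 0.0526. This call held only without control c when 1 library was left out (limma adjusted p from 0.076 to 0.13 without each of the others), and it was lost with limma without trend (0.057) and with no filter on level (0.079).

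Other gene IDs carry the bare family names, and their levels are given here beside those of the members. The 478 gene IDs that carry only the symbol snoU13 summed to 1470, 1732 and 1514 TPM with HA-TAZ and to 2906, 2419 and 2511 TPM in the controls, lower without overlap also after scaling. The 30 IDs with the symbol U8 summed to 13.5, 35.3 and 18.8 TPM against 62.8, 56.1 and 63.8 TPM, again lower without overlap on both scales. The 87 IDs with the symbol U3 summed to 344, 346 and 305 TPM against 356, 360 and 353 TPM as deposited, which is lower, and were higher without overlap after scaling. The copies' part in the results for SNORD13 and SNORD118 was not tested.

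U14, which is intronic and acts both in processing and as a methylation guide, was measured in SNORD14A and SNORD14E of the list, and neither was called. SNORD14A stood at 91.9, 99.5 and 81.8 TPM with HA-TAZ and at 159, 141 and 122 TPM in the controls. Every HA-TAZ library was below every control, and the difference missed the threshold (log2 fold change -0.32, SE 0.08, limma adjusted p = 0.061). It was called lower in TPM as deposited (-0.62, limma adjusted p = 0.035), when scaled on protein-coding genes (-0.39, limma adjusted p = 0.040) and with the filter at 5 TPM (-0.32, limma adjusted p = 0.043). SNORD14E stood at 96.0, 81.0 and 76.5 TPM against 121, 86.9 and 68.0 TPM and overlapped (log2 fold change 0.21, SE 0.19, limma adjusted p = 0.48, and -0.09 in TPM as deposited). The hosts are RPS13, a protein of the small ribosomal subunit, and HSPA8, a chaperone.

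SNORD10 was the only member outside the processing list that was called higher. It guides modification of ribosomal and spliceosomal RNA from an intron of EIF4A1, a helicase of translation initiation. SNORD10 stood at 9.24, 11.7 and 14.1 TPM with HA-TAZ and at 3.70, 3.87 and 7.15 TPM in the controls. The groups did not overlap (log2 fold change 1.39, SE 0.28, limma adjusted p = 0.045), and EIF4A1 itself was at 163 ± 8.95 TPM (SD, n = 3) against 175 ± 11.8 TPM (SD, n = 3). About 12.5 estimated counts stand behind SNORD10, and the authors' deposited table gives q = 0.381. Its call was lost when scaled on protein-coding genes (limma adjusted p = 0.052), with limma without trend (0.060), with no filter on level (0.086) and, on leaving out 1 library, was kept only without control c (limma adjusted p from 0.10 to 0.12 without each of the others).

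The 3 members called lower were low entries named after better known snoRNA families, and 2 of them share their exact symbol with other gene IDs. SNORD112 (ENSG00000251881), an ID that is not in GENCODE 29 and 1 of 9 members called SNORD112, stood at 0.918, 1.54 and 1.08 TPM with HA-TAZ and 5.12, 6.57 and 5.43 TPM in the controls (log2 fold change -1.42, SE 0.15, limma adjusted p = 0.013). SNORD112 (ENSG00000252565) had the opposite sign, at 3.63, 2.91 and 6.43 TPM against 2.82, 1.53 and 1.90 TPM (log2 fold change 0.98, limma adjusted p = 0.087). The SNORD14 copy in DNAJC27, whose sequence lacks the CTGA near its end, was listed at 0 in HA-TAZ 1 and 3, was at 0.939 TPM in HA-TAZ 2, and stood at 8.46, 6.02 and 3.12 TPM in the controls (log2 fold change -2.24, SE 0.38, limma adjusted p = 0.034). The SNORD41 copy on chromosome 14 was listed at 0 in HA-TAZ 1, was at 0.799 and 1.10 TPM in HA-TAZ 2 and 3, and stood at 5.08, 5.25 and 3.14 TPM in the controls (log2 fold change -1.62, SE 0.33, limma adjusted p = 0.046). SNORD41 within TNPO2, the ID with the approved name, overlapped between the groups, with 5.51, 3.85 and 1.62 TPM against 0, 6.57 and 8.69 TPM. The authors' table gives no statistics for the SNORD14 and SNORD41 copies and implies 3.73 estimated counts for the SNORD112 entry, for which it lists q = 0.636. The SNORD14 and SNORD41 copies lost the call on leaving out any 1 library (limma adjusted p from 0.0503 to 0.12), at a pseudocount of 0.1 (0.055 and 0.11) and with no filter on level (0.067 and 0.089). With limma without trend the SNORD41 copy lost it as well (0.060), and SNORD112 (ENSG00000251881) lost it without HA-TAZ 1, HA-TAZ 3 or control b (0.054 to 0.061).

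Among the remaining abundant guide RNAs, none was called. SNORD17 stood at 587, 548 and 452 TPM with HA-TAZ and at 598, 645 and 503 TPM in the controls (log2 fold change 0.16, SE 0.13, limma adjusted p = 0.45). SNORD15B in RPS3 (log2 fold change 0.22), SNORD12B in ZFAS1 (0.09) and SNORD12 in ZFAS1 (0.49) overlapped as well, with limma adjusted p of 0.36, 0.75 and 0.19. SNORD93, from the long non-coding host SNHG26, stood at 130, 122 and 90.2 TPM against 202, 168 and 168 TPM, lower without overlap (log2 fold change -0.36, SE 0.14, limma adjusted p = 0.15). Its host SNHG26 fell, from 55.7 ± 7.18 TPM (SD, n = 3) in the controls to 30.8 ± 1.17 TPM (SD, n = 3) with HA-TAZ (log2 fold change -0.53, limma adjusted p = 0.013). SNORD104, from SNHG25, stood at 119, 119 and 101 TPM against 87.1, 110 and 103 TPM, which overlapped as deposited and did not overlap after scaling (log2 fold change 0.48, limma adjusted p = 0.098).

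The imprinted cluster on chromosome 15 is the largest physical group of box C/D genes. There SNHG14, a long transcript read from the paternal chromosome, carries tandem copies of SNORD116 and SNORD115, whose targets are mostly unknown or outside ribosomal RNA. Of 125 listed genes of imprinted clusters, 86 were at 0 in all libraries and 26 were tested, 24 of them inside SNHG14. Limma called none of the 26, and 2 had an unadjusted p under 0.05, where 30.7% of all tested genes did so. The entries named SNORD112, described above, were not in this list. SNORD116-6 was the most abundant, at 39.5, 37.0 and 33.0 TPM with HA-TAZ and 73.1, 47.0 and 96.4 TPM in the controls. It was lower without overlap as deposited, overlapped after scaling, and was not called (log2 fold change -0.61, SE 0.27, limma adjusted p = 0.19). SNORD108 stood at 23.2, 45.7 and 45.1 TPM against 67.0, 56.7 and 47.9 TPM (log2 fold change -0.33, limma adjusted p = 0.40). SNORD116-13, at 35.2, 40.6 and 45.9 TPM against 43.8, 46.3 and 26.4 TPM, had 0.39 (limma adjusted p = 0.25). The 24 genes inside SNHG14 ranged from -1.57 (SNORD116-10) to 1.83 (SNORD116-3 and SNORD116-9, with the same values). Their median was 0.15 after scaling and -0.10 as deposited. For SNORD116-20 and SNORD64 nearly all of the level was in transcripts annotated at 1236 and 310 bases. SNHG14 itself was at 37.0 ± 3.89 TPM (SD, n = 3) against 41.8 ± 2.07 TPM (SD, n = 3), with a log2 fold change of 0.12 (limma adjusted p = 0.39).

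**Figure D4:**
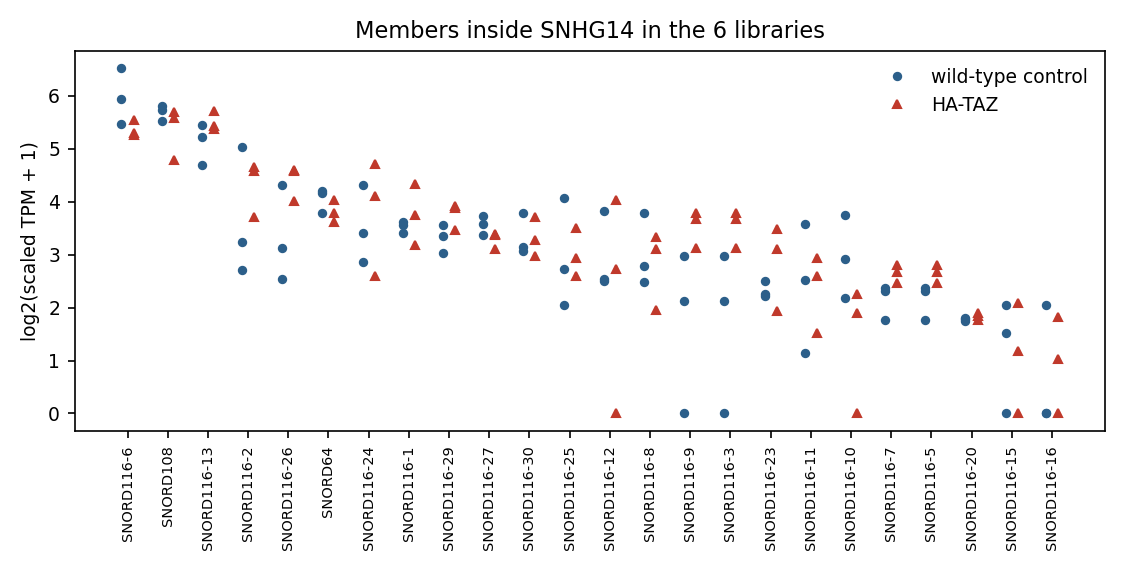
Log2(scaled TPM + 1) of the 24 members inside SNHG14, ordered by mean TPM, with circles for the 3 control libraries and triangles for the 3 HA-TAZ libraries. The copies differ widely in level within the cluster, several have libraries at 0, and the groups overlap for all but 4 of them. These 4 were higher with HA-TAZ, where 20.2% of all tested genes were higher without overlap after scaling. Each of the 4 shares its values with another of them, and each was counted. In TPM as deposited, 0 of the 24 were higher and 6 lower without overlap, where 1000 of the 22651 tested genes were higher and 9876 lower.

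NOP58, which encodes a core protein of the box C/D particle, also hosts 4 members. SNORD11 stood at 83.5, 85.1 and 80.8 TPM against 131, 104 and 108 TPM, lower as deposited and overlapping after scaling (log2 fold change -0.15, limma adjusted p = 0.17). SNORD11B (-0.42), SNORD70 (ENSG00000212534, -0.57) and SNORD70 (ENSG00000212309, 0.63) had limma adjusted p of 0.27, 0.51 and 0.35. The signs thus differed between snoRNAs of 1 host, and limma called none, with 0 at an unadjusted p under 0.05. The 13 members inside genes of ribosomal proteins had a median log2 fold change of 0.27 after scaling and -0.01 as deposited. Limma called none of the 13, and 5 had an unadjusted p under 0.05, 4 higher and 1 lower. An unadjusted p under 0.05 was reached by 30.7% of all tested genes.

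For 105 members with a tested host gene of the same strand in GENCODE 29, the snoRNA was compared with its host in each library. Over 245 pairs of snoRNA and host, H/ACA and scaRNA included, 0.0% were called by limma on the per-library difference. An unadjusted p under 0.05 was reached by 39 of all 245 pairs and by 17 of the 105 box C/D pairs, a similar share. Of these 17, 8 were higher and 9 lower than the host. The 8 include copies inside SNHG14 with the same values, which were each counted. Among the box C/D pairs the lowest adjusted p was 0.21. That lowest value was shared by SNORD14 in DNAJC27, SNORD14A in RPS13 and SNORD118 in TMEM107, with differences of -2.33, -0.58 and 1.94 on the log2 scale. Hosts varied less than the snoRNAs: the SD of the log2 fold change was 0.16 over hosts, counted once per pair, and 0.72 over snoRNAs. Across these pairs Pearson's r was 0.27, given as a description, since snoRNAs of 1 host share its value and all pairs share the 6 libraries. Of the 61 hosts, SNHG16, TSR1, AP1B1, DDX39B, ATP5F1B and TNPO2 rose (log2 fold changes from 0.27 to 0.50) and SNHG26 fell, and none of their box C/D snoRNAs was called. As deposited, the 6 log2 fold changes ran from -0.03 in TNPO2 to 0.22 in DDX39B. After scaling, 4.67% of all tested genes were called higher and 2.63% lower.

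**Figure D5:**
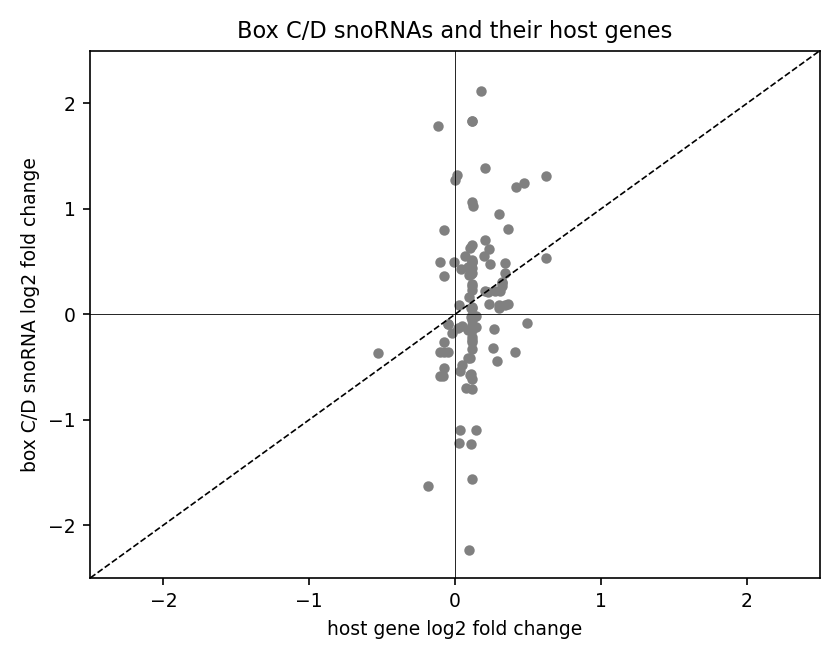
Log2 fold change of each of 105 box C/D snoRNAs (vertical) against that of its host gene (horizontal), with equal axes and a dashed line of equality. The snoRNAs spread from -2.24 to 2.12, whereas the hosts stay between -0.53 and 0.63.

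The proteins that act with these RNAs were called in few cases, and each call after scaling was higher with HA-TAZ. Of the 4 core proteins, FBL, the methyltransferase, rose, at 197, 200 and 205 TPM with HA-TAZ against 181, 180 and 193 TPM (log2 fold change 0.42, SE 0.09, limma adjusted p = 0.047). This call was lost in TPM as deposited (0.12, limma adjusted p = 0.14). NHP2L1 (now SNU13), NOP56 and NOP58 had 0.31, 0.20 and 0.11, with limma adjusted p of 0.062, 0.080 and 0.26. The median of the 4 was 0.26 after scaling and -0.04 in TPM as deposited, where the sign flips. Of 13 assembly factors 1 was called, the chaperone HSP90AB1 (0.27, limma adjusted p = 0.037, and -0.03 as deposited), and the median was 0.14, or -0.14 as deposited.

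Over all tested genes 4.67% were called higher and 2.63% lower, which is the background for the lists here. Of 23 genes of the U3 particle and early processome, 5 were called higher and none lower, with a median of 0.18 after scaling and -0.12 as deposited. They are TBL3 (0.60, limma adjusted p = 0.025), IMP4 (0.39, 0.037), PDCD11 (0.31, 0.039), IMP3 (0.27, 0.031) and RRP9 (0.32, 0.0497), where the second value is the limma adjusted p. In TPM as deposited TBL3 kept the call (0.32, limma adjusted p = 0.039) and IMP3 had -0.02. Of 13 factors of snoRNA end trimming and capping, the nuclear exonuclease XRN2 was called (0.28, limma adjusted p = 0.044, and -0.02 as deposited), with a list median of 0.04, or -0.25 as deposited. Of 18 host genes named SNHG, 6 were called higher, SNHG1, SNHG5, SNHG9, SNHG15, SNHG16 and SNHG17, with log2 fold changes from 0.35 to 0.57 and a list median of 0.35 after scaling and 0.06 as deposited. All 6 of these calls were lost in TPM as deposited. SNHG26, the host that was called lower (-0.53, limma adjusted p = 0.013), was not in this list.

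Box H/ACA snoRNAs, the sister class, served as a comparison. Of 192 tested, 5 were called higher and 4 lower, beside 6 and 3 of 148 box C/D members and 4.67% and 2.63% of all tested genes, and the difference between the classes was not tested. Their median log2 fold change was -0.11 after scaling and -0.36 as deposited, beside 0.04 and -0.21 for box C/D. The 7 H/ACA core protein genes held no call by limma, and 3 of them had an unadjusted p under 0.05.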

How the data were processed

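Total RNA of KMS27 cells was depleted of ribosomal RNA and sequenced as a stranded library, per the labels' protocols. The submitters' processing notes name kallisto 0.46.0, sleuth 0.30.0 and the build GRCh37, with no role given. The authors deposited TPM for 215170 transcripts, summing to 1000000 in each library, so TPM carries no depth and only the number of libraries and the spread between them set the precision. Strand and copy handling are not given in the sources used here. The authors also deposited a table of p-values, q-values and effects on the natural log scale per transcript. Estimated counts given in the text are the antilog of that table's mean natural log values, as deposited, and are approximate.

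TPM was summed per gene ID and scaled by median-of-ratios factors computed over 21512 genes above 0 in all libraries (0.866, 0.967 and 0.890 for HA-TAZ 1 to 3, and 1.21, 1.09 and 1.06 for control a to c). Genes with a mean of 1 TPM or more were tested on log2(value + 1) with limma 3.58.1 (R 4.3.3), intensity trend, two-sided, no covariates, at an adjusted p of 0.05. The procedure was tested on simulated data. Pairs of snoRNA and host used the per-library difference of the same values. Names, hosts, lengths and sequences came from GENCODE 29 (GRCh38), a different build from that of the files, so no coordinates are given, and 124 members were in it. Scripts used Python 3.11.15, numpy 2.4.6, pandas 2.3.3, scipy 1.17.1, matplotlib 3.10.9 and Biopython 1.88.

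The members and gene lists were chosen with earlier results of these data known. The named genes are the pre-rRNA processing list, the 8 most abundant members, all called members, the 3 nearest on each side of the filter, members of hosts that hold at least 4, the leading imprinted members, and called genes of the protein and host lists. SNORD112 (ENSG00000252565) was named after its values were seen. Alternatives were other scalings, a pseudocount of 0.1, other filters, limma without trend and leaving out each library. Factors over all genes, the transcript alternatives and the long U3 share were added after the data were seen.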

Additional observations from a re-analysis of the deposited data

How the results depend on the processing

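No paired analysis was possible because the control columns carry a name that is in no label and cannot be tied to numbered samples. The 9 calls among the members, 6 higher and 3 lower, were 15 in TPM as deposited (9 lower), 2 with no filter on level (1 higher, 1 lower), and 5 with limma without trend (3 higher). The count called lower was 1 at a pseudocount of 0.1 and 1 with the filter at 5 TPM. With 1 library left out the members called numbered 1 to 6, with 0 to 5 higher and 0 to 1 lower, while their median log2 fold change ran from 0.0339 to 0.12. That median, 0.04, was -0.21 as deposited and -0.0138 when scaled on protein-coding genes. SNORD14E reversed to -0.087 as deposited. The difference in the members' summed share, -0.0179 percentage points, was -0.0578 without SNORD3A and 0.101 in scaled TPM, and ran from -0.0296 to -0.00743 with 1 library left out. The difference in the long U3 share, 1.64 percentage points, ran from 1.36 to 1.93. The count of called snoRNA and host pairs was 0 by limma under each alternative run. The cause of these changes was not tested, except that no filter means more genes tested and leaving out a library fewer samples.

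The 9 called members kept their direction under each alternative run for them. Of the 118 members with an implied count 37 had under 10, and the median standard error under 10 TPM was 0.42 on the log2 scale.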

Other observations

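Gene IDs that carry a bare family name in place of a SNORD number form a further group of snoRNA-like entries. The name snoU13 was carried by 478 gene IDs, of which 187 passed the filter on level, 2 were called higher and 5 lower by limma, where 4.67% and 2.63% of all tested genes were, and the median log2 fold change was -0.38. Their summed level after scaling was 1730 ± 52.9 TPM (SD, n = 3) with HA-TAZ and 2332 ± 99.6 TPM (SD, n = 3) in the controls, while SNORD13, the gene with the family's number, rose. The name U8 was carried by 30 gene IDs, of which 3 passed the filter and limma called none. All 3 were lower at an unadjusted p under 0.05, which 30.7% of all tested genes reached in either direction. The summed level of the 30 gene IDs after scaling was 24.4 ± 10.9 TPM (SD, n = 3) with HA-TAZ and 54.6 ± 5.01 TPM (SD, n = 3) in the controls. The name U3 was carried by 87 gene IDs, of which 15 passed, with 1 called in each direction by limma. Of the 15, 5 were lower and 1 higher at an unadjusted p under 0.05.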
